A study of Homo sapiens with 6 samples.

Results

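Peaks called over both controls are the intervals that stood, with the same chromosome, start and end, in the Input list and in the LacZ list of one CRLM1 pull-down. They numbered 5040 of 31713 distinct intervals on chromosomes 1 to 22 and X, of which 4696 came from replicate 1 and 344 from replicate 2. The members were chosen by the calls themselves, so their numbers and scores are a description. The data were chromatin isolation by RNA purification with sequencing (ChIRP-seq) of HCT116, an established human colorectal carcinoma cell line. There were 6 libraries in 3 groups of 2 replicates, namely a pull-down with antisense probes to the long noncoding RNA (lncRNA) CRLM1, a pull-down with probes to bacterial LacZ, and Input, the genomic DNA without pull-down. All came from the same cell line, and the labels do not say whether the replicates were separate cultures. The files gave 4 peak lists with a score for each peak and no read counts, so the depth of each library is unknown.

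In ChIRP, cells are crosslinked and sheared, and biotinylated DNA probes that pair with a chosen RNA recover the DNA fixed to it. Input accounts for DNA that is over-represented in the genome of the line or easy to sequence, and the LacZ probes, which have no human target, account for DNA that sticks to probes and beads. A peak called over both is thus higher in the CRLM1 pull-down than in 2 kinds of background. The same pull-down library served both calls of a replicate, so the second call is a second background and not a second measurement of the RNA.

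The gene of CRLM1 itself, annotated as LINC01767 (ENSG00000223956.5, plus strand, chr1:56414918-56417137 on GRCh38), held the strongest member of each replicate by the lower of the 2 scores. In replicate 1 the member was chr1:56414742-56416221, with a score of 1008.27 over Input and 1466.89 over LacZ. In replicate 2 it was chr1:56414867-56416061, with scores of 1580.45 and 935.57. All 9 CRLM1 capture probes, each of 59 bases, matched the sequence of this DNA by blastn. Over their full length 6 of them did so, within the member of each replicate. The first 3 probes lie end to end, and their targets are printed first because these probes are complementary to them. The capitals mark the target of the second probe (chr1:56415022-56415080), and the strand shown is that of the RNA.
CRLM1 locus, chr1:56414963-56415139: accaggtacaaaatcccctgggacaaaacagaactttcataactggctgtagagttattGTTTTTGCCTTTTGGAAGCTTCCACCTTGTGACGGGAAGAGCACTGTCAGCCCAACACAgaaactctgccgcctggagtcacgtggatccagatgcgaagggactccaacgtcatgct
Away from this locus, no member of either replicate matched a CRLM1 probe by blastn at an E value of at most 0.01, and no member matched a LacZ probe.

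Besides the CRLM1 locus, 3 regions held a member in both replicates. Sequence is shown for the first and the second, as places where 2 pull-downs and 2 controls met that differ in base composition. The first lies in an intron of ESRRG, which encodes an orphan nuclear receptor related to the estrogen receptors. The members there, chr1:216918293-216918658 in replicate 1 and chr1:216917794-216918356 in replicate 2, shared only 64 bp, which are printed whole.
ESRRG intron, chr1:216918293-216918356: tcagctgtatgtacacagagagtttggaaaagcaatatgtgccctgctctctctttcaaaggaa
The second is intergenic on chromosome 11, 34034 bp by its midpoint from the start of TH, which encodes tyrosine hydroxylase, the enzyme of the first step of catecholamine synthesis. It is a C-rich tandem array with a GC content of 66.7% in the 300 bases shown, and the capitals mark CCTCCC.
Chromosome 11 near TH, chr11:2205570-2205869: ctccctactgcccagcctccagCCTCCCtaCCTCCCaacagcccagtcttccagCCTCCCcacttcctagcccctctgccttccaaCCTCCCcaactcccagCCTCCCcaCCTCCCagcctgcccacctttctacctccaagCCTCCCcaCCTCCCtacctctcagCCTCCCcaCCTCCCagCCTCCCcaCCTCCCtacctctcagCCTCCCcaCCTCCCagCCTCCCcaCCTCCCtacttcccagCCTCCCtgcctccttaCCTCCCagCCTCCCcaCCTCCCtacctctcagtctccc
The third lies on chromosome 5, within an intron of the lncRNA ENSG00000287176, where 52.9% of the sampled 31-base words of the central 200 bp occurred elsewhere in the genome.

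The scores at these 3 regions were far below those at the CRLM1 locus. The ESRRG peak of replicate 1 scored 65.52 over Input and 69.74 over LacZ, and that of replicate 2 scored 64.25 and 56.43. Near TH, replicate 1 gave 79.62 over Input and 136.94 over LacZ, while replicate 2 gave 139.05 and 74.06. For the chromosome 5 intron, replicate 1 gave 61.45 and 66.33, while replicate 2 gave 138.5 and 69.62. Within the Input list of replicate 2, the regions near TH and on chromosome 5 took ranks 33 and 36, and the ESRRG peak took rank 4780. The first pair thus stood near the top of that list and the ESRRG peak well inside it. CCTCCC, searched on both strands in the central 200 bp, was in 17.7% of replicate 1 members (95% Wilson interval 16.6 to 18.8) and 26.5% of replicate 2 members (22.1 to 31.4), against 21% of 58232 windows of the same length placed every 50 kb along the genome. Input-only peaks held it in 15.6% (14.6 to 16.7) and 18.4% (17.9 to 19), and LacZ-only peaks of replicate 1 in 28.4% (27.2 to 29.6). It was thus below the grid in replicate 1 members and above it in replicate 2 members. CCTCCC was not a planned motif and was picked after the array near TH had been seen. That array is counted among the members of both replicates, so the shares are a description. These evenly spaced windows are called grid windows below.

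The next strongest members of replicate 1 by the lower score were a long peak in a gene and a pair of tandem repeats. The second strongest, chr6:43778850-43781215, was the widest member at 2366 bp and lay in VEGFA, which encodes the main growth factor of blood vessel endothelium. Its scores were 642.78 over Input and 675.47 over LacZ. The same place in replicate 2 held 2 peaks called over Input only, with scores of 868.46 and 487.87, so the LacZ control of replicate 2 did not yield a call there. The next members in strength were chr11:69214419-69214643, with scores of 296.5 and 339.95, and chr5:31363833-31364558, with scores of 222.24 and 254.51. Both are built of the unit AACC, read as CCAA on the one and as GGTT on the other strand. Their sequences are shown because they carry this shared pattern, with each copy of CCAACCAA or its reverse complement in capitals.
Chromosome 11 AACC repeat, chr11:69214419-69214643: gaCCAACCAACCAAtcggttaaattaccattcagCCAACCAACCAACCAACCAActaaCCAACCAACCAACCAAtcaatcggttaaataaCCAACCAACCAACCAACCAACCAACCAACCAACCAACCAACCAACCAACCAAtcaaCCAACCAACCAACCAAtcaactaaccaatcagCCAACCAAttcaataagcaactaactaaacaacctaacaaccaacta
Chromosome 5 AACC repeat, chr5:31364046-31364345: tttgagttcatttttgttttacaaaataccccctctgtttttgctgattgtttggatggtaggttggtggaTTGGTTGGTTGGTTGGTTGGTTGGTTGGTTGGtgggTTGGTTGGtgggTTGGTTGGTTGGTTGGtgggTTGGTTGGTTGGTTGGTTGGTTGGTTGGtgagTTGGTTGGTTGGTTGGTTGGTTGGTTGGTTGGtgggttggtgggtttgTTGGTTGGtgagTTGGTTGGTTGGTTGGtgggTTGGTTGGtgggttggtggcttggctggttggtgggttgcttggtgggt

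Exact tandem runs of the AACC unit, of at least 20 bases within 500 bp of sequence around the midpoint, were then counted in every class. The count was made after these sequences had been seen. They were present in 8 members of replicate 1, with runs of 30 to 54 bases on 7 chromosomes. They were present in 2 peaks called over LacZ only in replicate 1, in none of the 4621 called over Input only, and in none of the 344 members or 16421 Input-only peaks of replicate 2. A count of 0, taken here and below to allow up to 3 counts, allows a share of up to 0.872% among the members of replicate 2 and of up to 0.0649% among the Input-only peaks of replicate 1, for counting error only. Grid windows held such a run in 0.0103%. The scores of the 8 members ran from 53.71 to 296.5 over Input and from 56.73 to 339.95 over LacZ. All 8 scored higher over LacZ, as did 66.4% of all replicate 1 members. Members with such a run made up 5 of the 8 strongest peaks of the LacZ list of replicate 1 and 6 of the 20 strongest, of which 18 were members. Outside the CRLM1 locus, the largest excesses of the LacZ score among all members were of this kind, in an intron of SHANK2, a scaffold gene of synapses, with 222.73 over LacZ against 87.43 over Input (chr11:70792213-70792611), and at chr9:136125407-136125891, with 169.33 against 61.63. Of 108 places in the genome with a run of at least 30 bases, 8 lay under a member of replicate 1, 1 under a LacZ-only peak of replicate 1 and none under a peak of replicate 2. The shorter word CCAACCAA was in 0.83% of replicate 1 members and 0.656% of grid windows (0.608 to 1.13 for the members), so the short word was as frequent in members as in the grid. The longest word that a CRLM1 probe shared with such a repeat had 7 bases, against 6 bases for a LacZ probe. Whether pairing with probes has a part in these peaks was not tested.

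In replicate 2, the second strongest member lay in an intron of TBC1D5, which encodes a regulator of endosomal membrane traffic. It was 200 bp wide, with 452.76 over Input and 239.02 over LacZ, and it had no repeated word among the 31-base words sampled and no peak in replicate 1. The next members by the lower score fell far behind it. They were chr11:92962614-92963340 with 152.59 and 91.08, and chr5:42709779-42710368 upstream of a transcript of GHR, the growth hormone receptor gene, with 165.08 and 87.25. The last was chr19:20012673-20012894, at the zinc finger gene ZNF682 and upstream of a transcript start, with 159.28 and 86.06. Its midpoint lay 26721 bp from the start of ZNF682, and 52.9% of its sampled 31-base words were repeated elsewhere. None of the 3 had a peak in replicate 1.

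**Figure D1:**
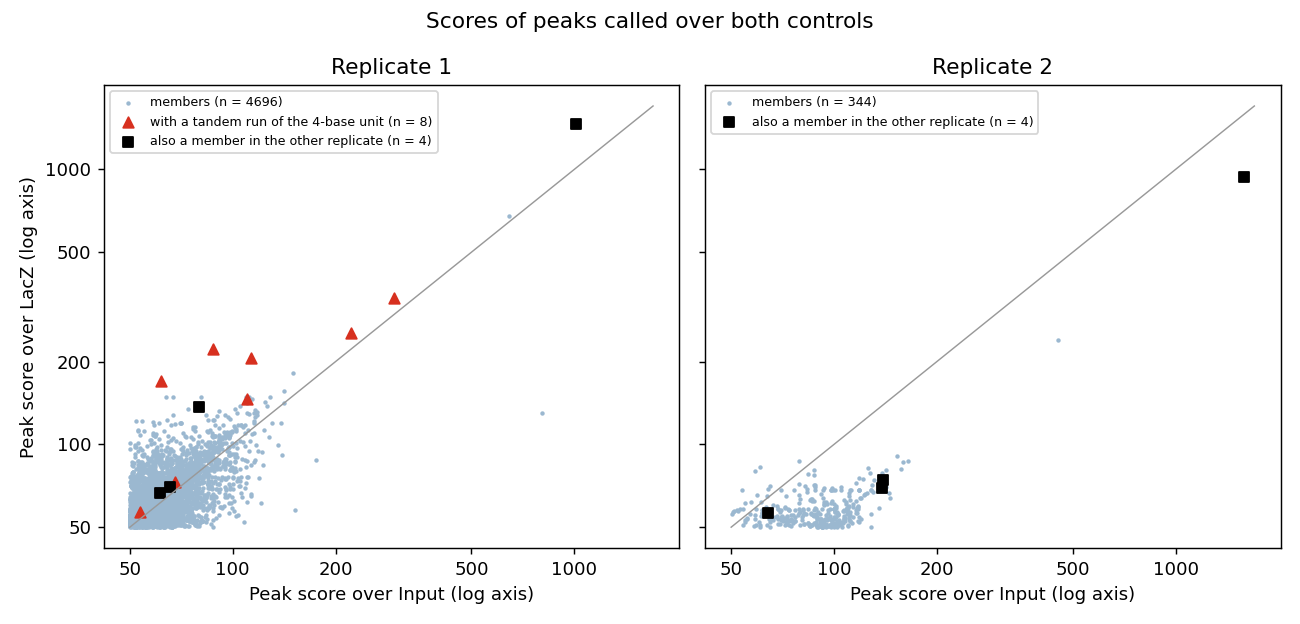
Score over LacZ against score over Input for each member, on log axes, for replicate 1 (4696 members) and replicate 2 (344 members); the line marks equal scores, black squares mark the 4 members found over both controls in the other replicate, and red triangles mark the 8 members with a tandem run of the 4-base unit AACC. Replicate 1 members straddle the line and replicate 2 members lie mostly below it, while the CRLM1 locus stands at the upper right in both.

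Most members were close to the caller's score floor of 50, and the balance of the 2 scores differed between the replicates. In replicate 1 the median score was 58.68 over Input (quartiles 53.53 and 67.97) and 60.95 over LacZ (54.54 and 70.97), and 3120 members (66.4%) scored higher over LacZ. Replicate 2 differed, as the median stood at 92.56 over Input (75.08 and 106.87) and 56.02 over LacZ (52.72 and 61.71), and 18 members (5.23%) scored higher over LacZ. The members of replicate 2 thus lay mostly high in its Input list, with 23 at a score of 50 to 60 and 82 at 60 to 80, and took in nearly all of its short LacZ list. Spearman's rank correlation between the 2 scores was 0.58 over 4696 members and 0.24 over 344. Each pair of scores shares the same pull-down library, so these values describe the lists only. The lowest members of replicate 1 by the lower score stood at 50.0 over LacZ and 52.0 over Input, at chr3:19437589-19437975 in an intron of the potassium channel gene KCNH8 and at chr4:109488162-109488548 upstream of a transcript of SEC24B. The lowest of replicate 2 stood at 89.68 and 50.03 in SRPK1, a kinase of splicing factors, and at 99.73 and 50.09 in an intron of RERE.

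Just outside the rule stood strong peaks with a call over 1 control. Over Input only, the highest in replicate 1 was chr4:49118302-49121493 with a score of 1505.61, in an AATGG satellite repeat, and the highest in replicate 2 was at RNU6-1, a gene of the spliceosomal U6 RNA, with 1670.06. Over LacZ only, the highest in replicate 1 was in ARHGDIA, with 152.98. The member with the largest excess over Input in replicate 1, chr17:63916517-63917343 beside the growth hormone gene GH1, had 803.0 over Input and 129.86 over LacZ. The same place in replicate 2 was a peak over Input only, with 1164.51.

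Membership rose with the score in most ranges. In replicate 1, 42.1% of Input-called peaks with a score of 50 to 60 were members (95% Wilson interval 40.9 to 43.3), 65.3% of those from 60 to 80 (63.5 to 67.2) and 79.4% of those from 80 to 100 (75.4 to 82.9). Above 100 the share was 50% (43.3 to 56.7), so the very strongest Input peaks were members less often than those just below. Over LacZ the share climbed through all 4 ranges, from 36.6% to 79.7%. In replicate 2, the members were 0.23% of Input-called peaks from 50 to 60 and 42.9% of those at 100 or more. Over all ranges, 2.05% of the Input list and 94.8% of the LacZ list of replicate 2 were members, against 50.4% and 45.6% in replicate 1. Such shares follow from the rule and from the length of the lists, and intervals here and below cover counting error only, with neighbouring peaks not independent.

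**Figure D2:**
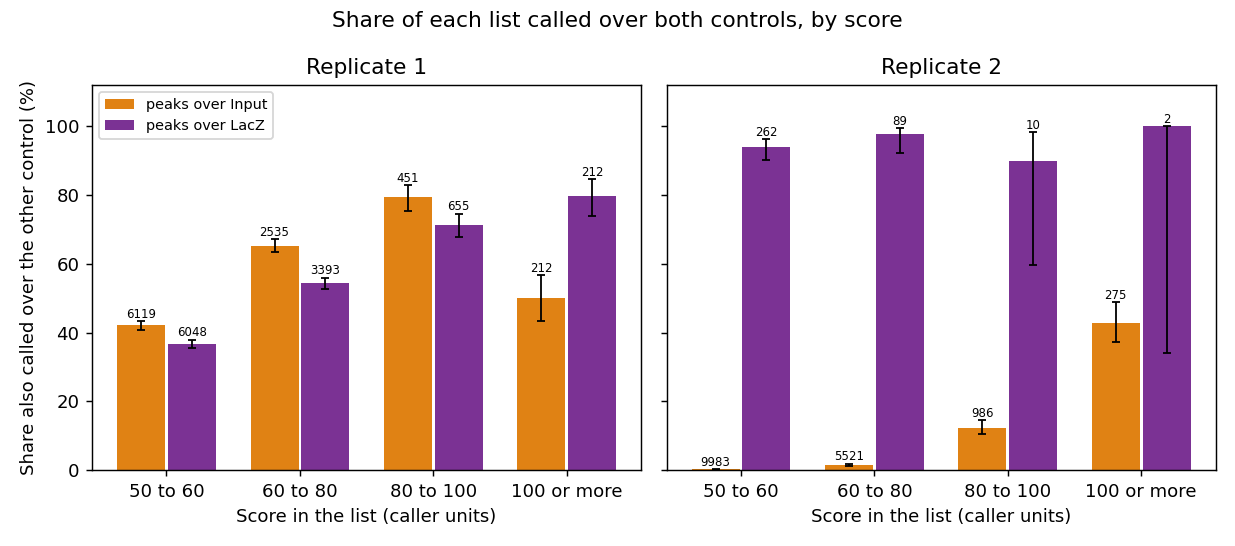
Share of peaks also called over the other control (%) by the score in the list, for peaks over Input (orange) and over LacZ (purple) in replicates 1 and 2; bars are shares, error bars 95% Wilson intervals, and the number above each bar is the number of peaks. The share of Input peaks in replicate 1 falls to 50% at scores of 100 or more, and nearly all LacZ peaks of replicate 2 are members in every range.

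A measure that the rule did not use is whether a member was found again in the other pull-down. Of the replicate 1 members, 45 of 4696 (0.958%, 95% Wilson interval 0.717 to 1.28) shared at least 1 bp with a peak of replicate 2. Over all peaks of replicate 1 the share was 1.23%, so members were not above the background of their own replicate. Peaks called over Input only recurred in 109 of 4621 (2.36%, 1.96 to 2.84), and those over LacZ only in 29 of 5612 (0.517%, 0.36 to 0.741). The interval of the members lay below that of Input-only peaks and overlapped that of LacZ-only peaks only at its edge. Of the replicate 2 members, 6 of 344 (1.74%, 0.802 to 3.75) recurred, against 1.07% of all peaks of replicate 2 and 1.05% (0.908 to 1.22) of its Input-only peaks. With 6 members found, the interval holds the share of the Input-only peaks. None of the 19 LacZ-only peaks of replicate 2 recurred, which allows a share of up to 15.8%.

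The gap between Input-only peaks and members in replicate 1 narrowed without repeated sequence. Among windows with at least 50% of the sampled 31-base words repeated elsewhere, 18.4% of Input-only peaks recurred (14.2 to 23.4), 1.49% of members (0.582 to 3.77) and 0.423% of LacZ-only peaks (0.116 to 1.53). Without such windows the shares were 1.36% of Input-only peaks (1.05 to 1.75), 0.926% of members (0.683 to 1.25) and 0.525% of LacZ-only peaks (0.361 to 0.763). The interval of the members then overlapped both others, while those of Input-only and LacZ-only peaks stayed apart. The part of repeated windows in the difference was otherwise not tested.

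Stronger members of replicate 1 were found again more often. The replicate 1 members were split into 4 equal groups by the lower of the 2 scores, and 4, 11, 9 and 21 of 1174 recurred from the weakest to the strongest group. In the strongest group this was 1.79% (1.17 to 2.72), and in the weakest 0.341% (0.133 to 0.873). The counts in replicate 2 were 0, 0, 1 and 5 of 86, which made 5.81% (2.51 to 12.9) in the strongest group, and the intervals of its groups overlapped. When midpoints within 10 kb were counted, 14.4% of replicate 1 members (13.5 to 15.5) and 15.4% of replicate 2 members (12 to 19.6) had a neighbour in the other replicate. The grid windows had one in 10.6% and 9.61%, so members of both replicates lay near peaks of the other pull-down more often than evenly spaced windows. Peaks of both replicates were dense on the first 50 Mb of chromosome 5 and sparse on chromosome X, while the grid was even. The part of this shared density in the difference was not tested. Input-only peaks showed 16.9% and 11.9% in replicates 1 and 2, and LacZ-only peaks of replicate 1 showed 10.5%, at the level of the grid.

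**Figure D3:**
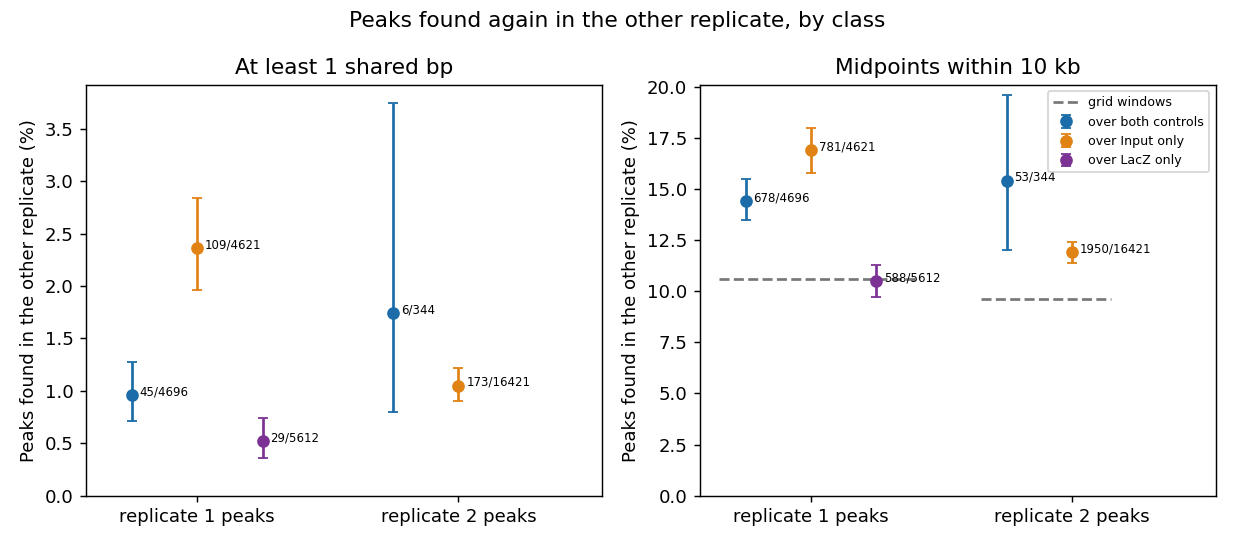
Share of peaks found in the other replicate (%) by class, counted by at least 1 shared bp (left) and by midpoints within 10 kb (right); points are shares with 95% Wilson intervals, labels give the number found over the number of peaks, dashed lines give the share of grid windows, and the 19 LacZ-only peaks of replicate 2 are left out. Members of replicate 1 stand at 0.958%, between LacZ-only and Input-only peaks.

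Of the partners of the replicate 1 members, 43 were peaks over Input only and 4 were members. Replicate 2 held 16421 Input-only peaks and 344 members among its 16784 peaks, so mostly Input-only peaks were there to be met. Conversely, 2 replicate 2 members met only a LacZ-called peak of replicate 1, at chr5:33250846-33251035 in an intron of LINC02160, with 127.76 over Input and 78.63 over LacZ, and at chr6:26568646-26569074, with 142.41 and 70.0. Their partners scored 87.93 and 113.36 over LacZ. A pair of recurring members lay at genes of short structured RNAs. One covered RNU11, which encodes the U11 RNA of the minor spliceosome, at chr1:28648436-28649363, with 138.42 over Input and 119.92 over LacZ and a replicate 2 Input score of 56.56. Another covered VTRNA1-1, a vault RNA gene, at chr5:140710988-140711507, with 63.31 and 78.93 and a replicate 2 Input score of 69.41. The neighbouring VTRNA1-2 also had a member in replicate 1, with 61.74 and 57.62, that did not recur. In all, 10 members of replicate 1 (0.213%, 0.116 to 0.392) and 2 of replicate 2 (0.581%, 0.16 to 2.09) overlapped a gene of a small structured RNA. In replicate 1 so did 5 Input-only peaks (0.108%, 0.0462 to 0.253) and 11 LacZ-only peaks (0.196%, 0.109 to 0.351), the last level with the members. In replicate 2 it was 19 Input-only peaks (0.116%, 0.0741 to 0.181). The intervals of members overlapped those of the other classes. Several of these genes are U6, Y RNA or 7SL copies, whose reads can be shared with near-identical copies.

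The median width was 392 bp in replicate 1 and 496 bp in replicate 2. Width comes from the same calls that chose the members, so it is given as a description. A width of 250 bp or less was found in 7.94% of replicate 1 members (7.2 to 8.75) and 12.5% of replicate 2 members (9.41 to 16.4). Among Input-only peaks it was found in 1.84% (1.49 to 2.27) and 1.66% (1.47 to 1.86), and among LacZ-only peaks of replicate 1 in 3.47% (3.03 to 3.99). In both replicates the interval of the members lay above that of the Input-only peaks. Exact score pairs recurred among members. A pair of 60.17 over Input and 70.51 over LacZ stood in 32 members of replicate 1 with widths of 229 to 263 bp, none of which was found in replicate 2. A pair of 51.71 and 62.0 stood in 25, and a pair of 69.0 and 79.33 in 21, of which 2 were found in replicate 2. Repeated pairs were also found at other widths, as 50.35 and 51.43 stood in 12 members of 336 bp and 50.23 and 51.31 in 11 of 337 bp. The lists do not carry the counts behind these scores.

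Tandem runs of a single base were also more frequent in members. A run of at least 20 A, or T on the other strand, stood within 500 bp of sequence around the midpoint in 9.2% of replicate 1 members (8.41 to 10.1) and 18.3% of replicate 2 members (14.6 to 22.7). Input-only peaks held one in 6.1% (5.45 to 6.83) and 7.61% (7.22 to 8.03), LacZ-only peaks of replicate 1 in 8.84% (8.12 to 9.61), and grid windows in 2.76%. Members thus exceeded Input-only peaks in both replicates, with intervals apart, and were level with LacZ-only peaks in replicate 1. The runs went with width. Among members of 250 bp or less they stood in 25.7% (21.6 to 30.4) in replicate 1 and 30.2% (18.6 to 45.1) in replicate 2, against 7.77% (7.01 to 8.61) and 16.6% (12.8 to 21.2) of wider members. Among the peak classes, the AATGG unit of pericentromeric satellites was found in Input-only peaks alone. It had a run in 145 Input-only peaks of replicate 1 (3.14%, 2.67 to 3.68), in 56 of replicate 2, and in no member of either replicate, which allows a share of up to 0.0639% in replicate 1. None of the 5612 LacZ-only peaks of replicate 1 held one either, which allows up to 0.0535%, so the absence was not particular to members.

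**Figure D4:**
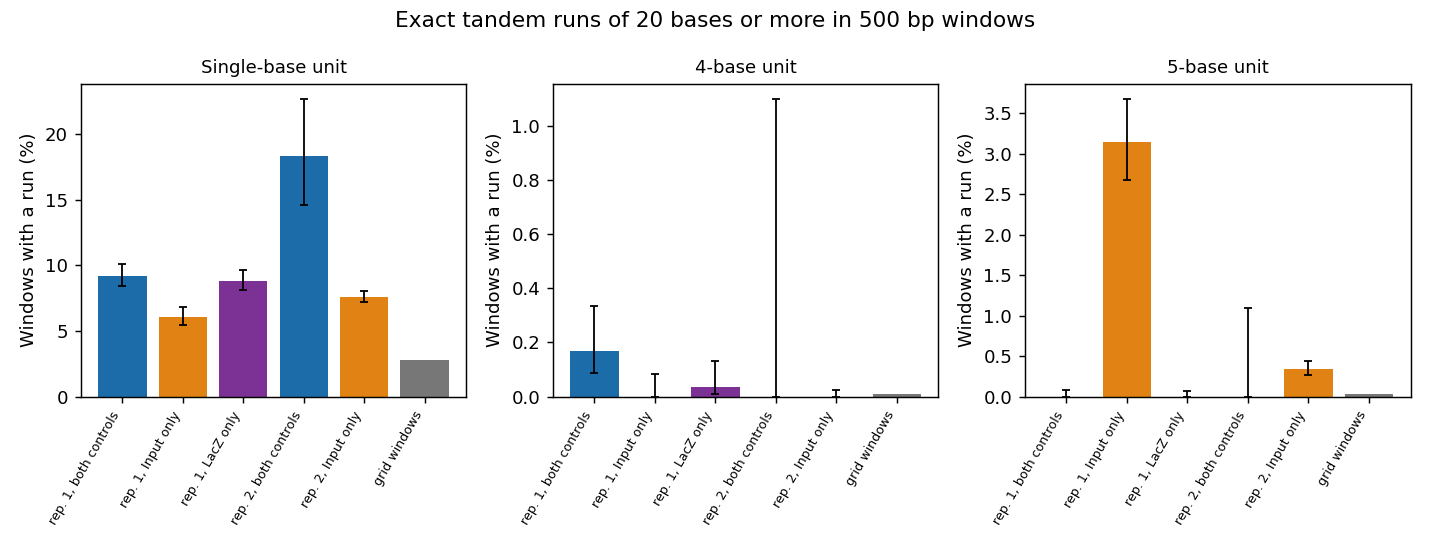
Share of 500 bp windows (%) with an exact tandem run of 20 bases or more, for a single-base unit (A or T), the 4-base unit AACC and the 5-base unit AATGG, by class and replicate; error bars are 95% Wilson intervals, grey bars are grid windows without intervals, and the vertical scales differ. Single-base runs are most frequent in replicate 2 members (18.3%) and the 4-base unit in replicate 1 members (8 of 4696). The 5-base unit is absent from the members of both replicates and from the LacZ-only peaks of replicate 1.

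In base composition the members lay close to the Input-only peaks. The median GC content of the central 200 bp was 38% in replicate 1 members, 37.5% in Input-only peaks and 44% in LacZ-only peaks, with 40% in grid windows. In replicate 2 it was 39.5% in members and 38.5% in Input-only peaks. The standard deviation among members was 7.03 and 7.82 percentage points, so single peaks of the classes overlap widely. CCCC, a motif of C-rich stretches of the kind bound by hnRNPK in RNA, was searched on both strands of the same windows and was present in 43.8% of replicate 1 members (42.4 to 45.2), 44.8% of replicate 2 members (39.6 to 50.1) and 51% of grid windows. In LacZ-only peaks of replicate 1 it was present in 57.1% (55.8 to 58.4). TCCC, which overlaps CCCC in part, behaved alike, with 72.7% and 73.5% of members and 76.2% of grid windows. A run of 6 CA units was found in 1.45% and 2.91% of members, a run of 4 GGAA units in 0.256% and 0.581%, and a telomere repeat of 2 TTAGGG units in none, against 0.874%, 0.079% and 0.00687% of grid windows. The GGAA run rested on 12 and 2 members. Input-only peaks held the CA run in 1.71% and 1.85% and the GGAA run in 0.195% and 0.146%. LacZ-only peaks of replicate 1 held them in 1.92% and 0.214%. CCCC and TCCC were thus no more frequent in members than in evenly spaced windows.

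Parts of some peaks of every class, members among them, matched LINC01767 in sequence. A match at an E value of at most 0.01 was found in 10.8% of replicate 1 members and 19.2% of replicate 2 members, against 8.01% and 11.7% of Input-only peaks and 18% of LacZ-only peaks of replicate 1. Whole peaks were searched, and replicate 2 members were wider than its Input-only peaks, with medians of 496 and 401 bp. No share of grid windows is given, so these values do not show an excess over the genome. When matches within the last 300 bases of the gene were left out, only the member at the CRLM1 locus remained in each replicate. No peak over one control remained. The matches of members elsewhere therefore all fell in that 3′ end, outside the stretch that the probes cover.

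By position in genes, members were mostly intronic or intergenic. In replicate 1, midpoints lay in an intron in 50.1% (48.7 to 51.5), between genes in 35.2% (33.8 to 36.5), within 5 kb upstream of a transcript start in 11% (10.1 to 11.9), in another exon in 1.72% and in an untranslated region or coding sequence in 2.02% (1.66 to 2.47). The same shares in replicate 2 were 51.5% (46.2 to 56.7), 27.6% (23.2 to 32.6), 16.6% (13 to 20.9), 2.33% and 2.03% (0.989 to 4.14). The grid windows gave 45.7%, 34.9%, 14%, 2.3% and 3.09%. Upstream positions were thus below the grid in replicate 1 members, while in replicate 2 members the interval held the grid value. Input-only peaks were upstream in 9.07% (8.27 to 9.93) in replicate 1 and 12.1% (11.6 to 12.6) in replicate 2. At 5 kb with all genes, members thus exceeded them in both replicates with intervals apart. With protein-coding genes only, the intervals overlapped in both replicates. At 1 kb, members of replicate 1 stood at 2.32% (1.93 to 2.79) and Input-only peaks at 1.6% (1.28 to 2.01). In replicate 2 members were the lower at 1 kb, with 2.03% (0.989 to 4.14) against 2.47% (2.24 to 2.71). The LacZ-only peaks of replicate 1 exceeded the members of that replicate, with 18.8% upstream (17.8 to 19.9) and 6% in untranslated or coding sequence (5.41 to 6.66). The median distance to the start of a protein-coding gene was 120.0 kb for replicate 1 members, 143 kb for Input-only peaks, 46.2 kb for LacZ-only peaks and 90.3 kb for grid windows. In replicate 2 it was 57.5 kb for members and 121 kb for Input-only peaks, so the members of the 2 replicates lay on opposite sides of the grid.

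Promoters in the narrow sense were rare among members. Of 34961 RefSeq promoter windows (GRCh38.p14, 250 bases before to 50 after a gene start), members of replicate 1 overlapped 18 and members of replicate 2 overlapped 4. As a share of peaks this was 0.341% (0.21 to 0.553) and 1.16% (0.453 to 2.95), against 0.238% (0.133 to 0.426) and 0.335% (0.257 to 0.436) of Input-only peaks of replicates 1 and 2 and 1.55% (1.26 to 1.91) of LacZ-only peaks of replicate 1. The interval of replicate 2 members began at 0.453, just above the end of that of its Input-only peaks at 0.436, with 4 members behind it. These include the member at LINC01767, whose DNA the probes match. The share without it was not computed, so no difference between the classes is drawn. LINC01767 was the promoter found in both replicates. Others in replicate 1 were those of PFKM, a phosphofructokinase of glycolysis (67.32 over Input and 81.02 over LacZ), DCTN4, a dynactin subunit (60.98 and 59.95), and PCDHA1, a protocadherin (66.61 and 50.54). Among replicate 2 members, the promoter of GJA5, which encodes a connexin of gap junctions, held a member with 50.5 and 56.8. No member overlapped any of 1558 RefSeq microRNA hairpins. Other classes held few, with 2 of 16421 Input-only peaks of replicate 2, 1 of 5612 LacZ-only peaks of replicate 1 and no Input-only peak of replicate 1. The absence was thus not particular to members.

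Members were found in 1660 of 19970 protein-coding genes in replicate 1, which is 8.31%, and in 192 in replicate 2, which is 0.961%, counting the gene body and 5 kb upstream. In both replicates it was 73 genes. The share followed gene length closely. In replicate 1, 0.352% of genes under 10 kb held a member, 2.87% of genes from 10 to 50 kb, 13.7% from 50 to 200 kb, 39% from 200 to 500 kb and 71.7% of genes of 500 kb or more. Members per Mb of gene body rose too, from 0.326 in the shortest genes to 1.99 in the longest. The same density in replicate 2 was 0.0814 and 0.118, and it was highest, at 0.155, in genes of 10 to 50 kb.

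The 10 protein-coding genes with most members in replicate 1 were all 898 kb or longer. CDH18, a type II cadherin gene of 1105 kb on chromosome 5, led with 13 members in replicate 1 and 1 in replicate 2. DLG2, a synaptic scaffold gene, held 9 and 1, PTPRD, a receptor phosphatase gene, 9 and 0, and GPC5, a glypican gene, 8 and 0. CTNND2, which encodes delta-catenin, and NLGN1, CNTN4 and GRIK2, which encode a neuroligin, a contactin and a kainate receptor subunit, held 7 each in replicate 1 and none in replicate 2. MACROD2 held 6 and 1 and ADAMTSL1 6 and 0. In replicate 2 no protein-coding gene held more than 2 members, and HSDL2, PCSK6, PATJ, RELN and IMMP2L held 2 each. Of genes with members in both replicates, LINGO2, CNTNAP2 and CSMD1 followed with 5 and 1, then ESRRG, MECOM, PRKG1 and CDH12 with 4 and 1. Except in ESRRG, the members of replicate 1 in these genes shared no base with a member of replicate 2. In PRKG1 a replicate 1 member (chr10:52239439-52239652, 69.0 over Input and 79.33 over LacZ) met an Input-only peak of replicate 2.

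The cadherin list had the largest number of members. Cadherins are the calcium-dependent adhesion proteins of cell junctions, and switches among them accompany the epithelial to mesenchymal transition (EMT) of carcinoma cells. Of 20 classical and type II cadherin genes, 8 held a member in replicate 1 and 4 in replicate 2, where 8.31% and 0.961% of all protein-coding genes did. The median length of these genes was 149 kb. CDH18, CDH12, CDH10 and CDH9 lie together on the short arm of chromosome 5 and held 13, 4, 1 and 3 members in replicate 1. CDH11, CDH5, CDH13 and CDH4 held 1 each, and the 4 genes with a member in replicate 2 were CDH18, CDH12, CDH9 and CDH13. The same genes also held many peaks over one control, with 29 Input-only peaks of replicate 2 in CDH18 and 29 in CDH12. CDH1 and CDH2, the epithelial and neural cadherin genes of the list, held no member. Among catenins and their partners, 4 of 14 held a member in replicate 1 and 1 in replicate 2, and these were CTNNA2 (3 and 1), CTNND2 (7 and 0), CTNNA3 (3 and 0) and PARD3 (1 and 0).

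Of the 7 other lists, 5 held members. Of 7 EMT transcription factor genes, ZEB1, a zinc finger repressor of epithelial genes, held 3 members in replicate 1 and none in replicate 2. Of 20 GALNT genes, which encode the enzymes that start O-linked glycosylation, 7 held a member in replicate 1 and none in replicate 2, with 3 in GALNTL6, 2 in GALNT13 and 1 each in GALNT2, GALNT8, GALNT10, GALNT14 and GALNT17. Of 51 colorectal cancer pathway genes, 7 held a member in replicate 1 and none in replicate 2. These included PIK3CB, which encodes a catalytic subunit of phosphoinositide 3-kinase, with 2 members, and the tumour suppressor gene DCC with 4. Of 22 DNA damage genes, 6 held a member in replicate 1 and 2 in replicate 2, and XRCC5, which encodes a subunit of the Ku complex, held 1 in each. Of 10 VEGF ligand and receptor genes, VEGFA and VEGFC held 1 each in replicate 1. None of the 24 hnRNP genes, with a median length of 18.6 kb, and none of the 4 BMP, SMAD and SMURF genes held a member in either replicate. Most lists with members had a median gene length between 50 and 200 kb, where 13.7% of all protein-coding genes held a member in replicate 1 and 1.4% in replicate 2. Some list genes with members were far longer, as CDH18 (1105 kb), GALNTL6 (1229 kb) and DCC (1196 kb). Of genes of 500 kb or more, 71.7% held a member in replicate 1 and 9.32% in replicate 2. Nothing particular to a list was tested.

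Members were spread unevenly over chromosomes. On chromosome 5 there were 2.89 members per Mb in replicate 1, 1.8 times the mean of 1.61 over all chromosomes, and 0.215 in replicate 2, 1.82 times the mean of 0.118. It was highest in the first 50 Mb, which cover the short arm, with 255 members in replicate 1 (5.12 per Mb, 3.18 times the mean) and 26 in replicate 2 (0.522 per Mb, 4.42 times). The rest of the chromosome had 2.04 per Mb in replicate 1, above the mean, and 0.0989 in replicate 2, below it. The same stretch was dense in peaks over one control, with 2.38 and 1.75 times their own means for Input-only and LacZ-only peaks of replicate 1 and 3.4 times for Input-only peaks of replicate 2. The densest bins of 1 Mb in replicate 1 were chr5:39000001-40000000 with 12 members, and chr5:13000001-14000000 and chr5:23000001-24000000 with 10 each. The density on that arm was thus shared by all classes except the 19 LacZ-only peaks of replicate 2.

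Chromosome X was lowest in members, with 56 in replicate 1 (0.225 times the mean) and 2 in replicate 2 (0.109 times). Input-only and LacZ-only peaks of replicate 1 were lower still, at 0.0406 and 0.0601 times their means. Members were also sparse on the gene-rich chromosomes 19 and 22 in replicate 1, at 0.425 and 0.396 times the mean, where LacZ-only peaks were dense, at 1.53 and 1.46 times. On chromosome 8, replicate 1 members stood at 0.963 times the mean and Input-only peaks at 2.55 times. The members of replicate 1 thus had neither the excess of Input-only peaks on chromosome 8 nor that of LacZ-only peaks on chromosomes 19 and 22.

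**Figure D5:**
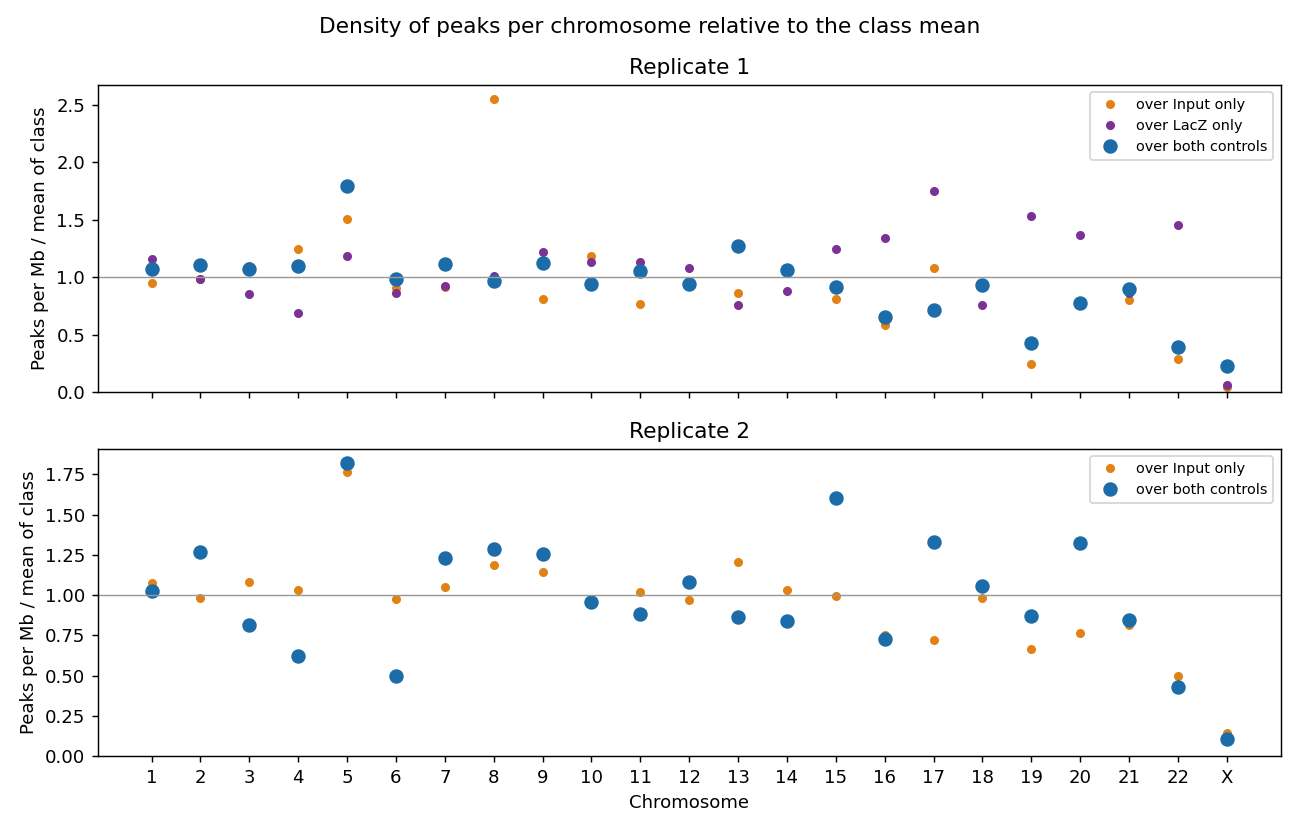
Peaks per ungapped Mb of each chromosome divided by the mean of the class over all chromosomes, for members (large blue points) and for peaks over Input only (orange) and LacZ only (purple, replicate 1), in replicates 1 and 2; the line marks the mean. Chromosome 5 is highest in members of both replicates (1.8 and 1.82 times) and chromosome X lowest (0.225 and 0.109 times).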

How the data were processed

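ChIRP-seq peak lists of 2 CRLM1 pull-downs of HCT116 cells were analysed, each called by the authors against the Input and the LacZ library of the same replicate number. Per the labels and the methods of the study, the authors trimmed reads with cutadapt, aligned them to GRCh38 with Bowtie2 and called peaks with MACS2 at a q-value cutoff, as stated for calls against Input only. The deposited score of each peak is the authors' own, with a floor of 50 and a scale that is not stated. Peak names, columns and floor are those of an older MACS release, so release and cutoff stay unsettled for these files. Scores were compared within a list or described side by side. Groups came from the sample titles. The members and lists were chosen with earlier results of these data known. Named were all regions with members in both replicates, the 5 strongest members of each replicate by the lower score, the 2 weakest, the widest, those with the largest score gaps, the genes with most members, and list genes.

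Identical intervals were joined with pandas 2.3.3. Positions are 1-based on GRCh38 with GENCODE release 44, and sequences were read with pysam 0.24.0 and matched with BLAST 2.17.0 (word size 11). Shares carry 95% Wilson intervals (for a share of 0, the limit printed in the text is 3 counts of the total), and no test was run because peaks are not replicates. Repeats were judged from every 10th 31-base word. Functions were tested on simulated data. The depth is unknown. Some items are not reported here.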

Additional observations from a re-analysis of the deposited data

How the results depend on the processing

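No paired analysis was possible because no result came from a test. Of 90 alternatives, 44 stayed within the replicate spread, the Wilson interval or 1.5 times a count. A score of at least 60 or 100 in both lists left 1613 and 50 members in replicate 1, and 93 and 2 in replicate 2. Recurrence of replicate 1 members was 0.575% with reciprocal overlap of 50%, 2% for midpoints within 1 kb, 14.4% within 10 kb, 1.33% at or above the list medians and 1.9% in the strongest 25%. For Input-only peaks of replicate 1 the same settings gave 1.69%, 3.29%, 16.9%, 4.44% and 8.37%, and 1.36% without repeated windows. LacZ-only peaks of replicate 1 gave 0.356%, 1.09% and 10.5% for the first 3. Replicate 2 members gave 15.4% within 10 kb and 6.33% in the strongest 25%. Input-only peaks of replicate 2 gave 0.737%, 1.77%, 11.9%, 1.34% and 1.9%, and 0.807% without repeated windows. Members at or above the median Input score had a median LacZ score of 68.5 in replicate 1. The upstream share of members was 2.3% with 1 kb and 5.87% with protein-coding genes only, the intron share 56.8% and 37.7%, and the intergenic share 53.9% with protein-coding genes only. Any overlap gave 48.1% in introns and 3.91% in untranslated or coding sequence, and peaks at or above the list medians gave 1.98% for the last. Leaving out a replicate gave 11% to 16.6% upstream, 50.1% to 51.5% in introns, 27.6% to 35.2% between genes, 2.02% to 2.03% in untranslated or coding sequence, a median GC of 38% to 39.5%, and 294 to 2832 genes with a member. The 5 kb upstream alone held members in 409 genes. At an E value of at most 1, 4 and 2 members of replicates 1 and 2 matched a CRLM1 probe. A match to LINC01767 was found in 12.6% of replicate 1 members at that value and in 12.8% with word size 7. The cause of these shifts was not tested beyond what the settings remove or add.

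The planned setting without repeat-masked peaks was not run, since the reference sequence used here carries no masking. The repeated 31-base words took its place, and they, the tandem runs and the word CCTCCC were chosen after seeing the data. The unknown depth and the unlabelled origin of the replicates limit every count. The pull-down library is shared by both calls of a replicate, and the number of replicate 2 members is bounded by its 363 LacZ-called peaks.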

Other observations

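On sequences other than chromosomes 1 to 22 and X, replicate 1 held 8 further intervals called over both controls and replicate 2 held none.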
